A study of Homo sapiens with 7 samples.

Results

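H/ACA box small nucleolar RNAs were measured in human embryonic stem cells of the H9 line in 2 groups of RNA-seq libraries, labelled CTRL (n = 4) and DJL1 (n = 3). The set takes the rows of the raw count table whose symbol begins with SNORA or SCARNA followed by a digit and whose raw counts sum to at least 50 over the 7 libraries. It holds 94 RNAs, 83 named SNORA and 11 named SCARNA, of 211 rows with such names and 59251 rows in all. Of the other such rows, 53 were listed at 0 in every library and 64 had sums of 1 to 49. The sums are of unscaled counts over both groups together, and CTRL holds 70.9% of all counts, so a row higher in CTRL reached the limit more easily than one as high in DJL1. The members nearest the limit inside it were SNORA59B, SNORA12 and SCARNA9L with 52, 53 and 54 counts, and those nearest outside were SNORA22C, SNORA31 and SNORA94 with 48, 47 and 44 counts.

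The series concerns LINE1 elements at rDNA distal junctions and how they bear on nucleolar organisation. Both groups were naive H9 cells kept in RSeT medium and transfected with guide RNA plasmids in the presence of 10 nM DZNep and 5 nM TSA. Both also received, for the first 16 h, the CEPT cocktail of polyamine, trans-ISRIB (0.7 µM), Emricasan (5 µM) and Chroman 1 (50 nM), and both were harvested at 48 h. Neither the content of the CTRL plasmids nor the protein directed by the guides is given in the sources used here. These sources do not agree on whether the cells were sorted before RNA extraction. The labels do not name separate cultures for the replicates, so every p-value below reflects only the scatter among these libraries, possibly a technical one.

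Total counts were 62277489 to 76691997 in the CTRL libraries and 34634882 to 37795742 in the DJL1 libraries. The biological coefficient of variation fitted within a group was 3.46% in CTRL and 13.8% in DJL1. The pluripotency markers POU5F1, NANOG, SOX2, LIN28A, DPPA4, SALL4 and TDGF1 had summed levels of 8744 CPM (counts per 1000000 counts of the library) in CTRL and 7870 CPM in DJL1 on average, most of it POU5F1 (log2 fold change 0.01, not called). The other 6 were lower, with a median of -0.41 over the list, and of 7 naive markers 5 were higher and 2 lower. Of 8 fibroblast markers 6 were tested and all 6 were higher in DJL1, with summed levels of 490 to 503 CPM in CTRL and 766 to 884 CPM in DJL1, while DCN and LUM stayed at 0 to 0.171 CPM in every library. Whether these differences have a part in the results on small nucleolar RNAs was not tested.

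An H/ACA RNA folds into hairpins joined by a hinge and followed by a short tail. The hinge carries the H box and the tail ends in the ACA box, and each hairpin can pair with a target RNA and present a uridine to the pseudouridine synthase dyskerin. Most SNORA RNAs guide pseudouridylation of ribosomal RNA in the nucleolus. SCARNA RNAs gather in Cajal bodies and guide modification of spliceosomal RNA, and some of them carry the C and D boxes of the methylation guides in place of, or next to, the H and ACA boxes. In human cells most H/ACA RNAs lie in introns of host genes and are trimmed out of the excised intron, bound by dyskerin (DKC1), NOP10, NHP2 and GAR1. The mature RNAs have no poly(A) tail, while the library kit selects poly(A) RNA. Reads counted to a member may therefore come from mature RNA, from a precursor or from retained host sequence, and these cannot be told apart in these files. In bulk samples fewer cells with an RNA and less of it per cell cannot be told apart either.

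The sequences below show the boxes in RNAs on which the results turn. Abundant members that were lower in DJL1 are SNORA70, SNORA73B and SNORA52, and members with large decreases are SNORA27 and SNORA15. SNORA5A is a member that was not lower, SNORA11D a member with an identical copy and SCARNA6 a SCARNA with C and D box matches. They are DNA sequences of the transcribed strand, 5′ to 3′, at GENCODE release 29 positions on GRCh38. In the SNORA sequences capitals mark the ANANNA match nearest the middle (the H box) and the ACA 3 bases from the end. In SCARNA6 they mark an ATGATGA match near the start (the C box) and a CTGA match near the end (the D box). An ACA box away from the end was not searched for, so SCARNA6 may hold H and ACA boxes as well.
SNORA70: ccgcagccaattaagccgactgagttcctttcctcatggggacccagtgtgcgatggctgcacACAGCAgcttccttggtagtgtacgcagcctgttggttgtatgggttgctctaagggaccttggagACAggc
SNORA73B: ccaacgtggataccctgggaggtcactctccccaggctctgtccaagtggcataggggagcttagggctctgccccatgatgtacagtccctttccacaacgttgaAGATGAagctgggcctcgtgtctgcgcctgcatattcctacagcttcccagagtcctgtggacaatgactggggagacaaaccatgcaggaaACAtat
SNORA52: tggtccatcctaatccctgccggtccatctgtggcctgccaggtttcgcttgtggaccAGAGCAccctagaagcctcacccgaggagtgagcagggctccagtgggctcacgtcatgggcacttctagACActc
SNORA27: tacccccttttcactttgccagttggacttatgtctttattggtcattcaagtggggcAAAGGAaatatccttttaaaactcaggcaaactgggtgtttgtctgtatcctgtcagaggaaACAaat
SNORA15: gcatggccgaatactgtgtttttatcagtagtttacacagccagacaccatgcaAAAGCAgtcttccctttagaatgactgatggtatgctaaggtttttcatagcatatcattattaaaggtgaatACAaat
SNORA5A: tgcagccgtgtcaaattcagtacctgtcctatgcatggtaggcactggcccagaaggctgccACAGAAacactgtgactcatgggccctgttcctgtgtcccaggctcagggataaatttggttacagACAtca
SNORA11D: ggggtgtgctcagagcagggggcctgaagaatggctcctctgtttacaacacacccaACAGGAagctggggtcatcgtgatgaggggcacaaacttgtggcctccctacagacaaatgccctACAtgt
SCARNA6: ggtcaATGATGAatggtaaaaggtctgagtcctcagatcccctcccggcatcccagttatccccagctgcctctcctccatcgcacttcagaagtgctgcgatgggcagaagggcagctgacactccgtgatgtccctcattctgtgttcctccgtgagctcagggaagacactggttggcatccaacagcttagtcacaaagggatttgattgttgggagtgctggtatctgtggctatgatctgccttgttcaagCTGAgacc

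SNORA70 lies at chrX:154400281-154400415 on the plus strand and overlaps an annotated exon of RPL10. SNORA73B lies at chr1:28508559-28508762 on the plus strand in an intron of SNHG3. SNORA52 lies at chr11:811681-811814 on the plus strand and overlaps an annotated exon of RPLP2. RPL10 and RPLP2 encode ribosomal proteins, and SNHG3 is a noncoding snoRNA host. SNORA27 lies at chr13:27255401-27255526 on the plus strand over an annotated exon of RPL21, and SNORA15 at chr7:56060470-56060602 on the plus strand in an intron of CCT6A, a chaperonin subunit gene. SNORA5A lies at chr7:45104349-45104482 on the minus strand in an intron of TBRG4. SNORA11D lies at chrX:52190621-52190748 on the plus strand, and SCARNA6 at chr2:233288676-233288940 on the plus strand in an intron of ATG16L1, an autophagy gene.

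Of the 94 members 87 matched a GENCODE gene with strand, 80 SNORA and 7 SCARNA. The H and ACA motifs (ANANNA beginning between 35 and 65% of the length, and ACA 3 bases from the end, on the transcribed strand) were both found in 57 of the 80 SNORA members (71.2%). The share was 71.8% in the 71 other GENCODE genes named SNORA and 0 of 278 genes named SNORD, which are the C/D box methylation guides. The SNORA members thus held both motifs about as often as the SNORA genes that are not members. Of the 7 SCARNA members 2 held both (28.6%). A C box (ATGATGA or GTGATGA in the first 15 bases) with a D box (CTGA in the last 15) was found in 0 of 80 SNORA members, 3 of 7 SCARNA members and 178 of 278 SNORD genes (64.0%). The members were 121 to 421 bases long with a median of 135, and 79 of 94 were 120 to 160 bases.

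The members were lower as a group in the DJL1 libraries. The levels of all 94 summed to 156, 164, 155 and 155 CPM in the CTRL libraries and to 81.9, 76.2 and 86.6 CPM in the DJL1 libraries. No DJL1 library reached a CTRL library, and the mean was 158 ± 4.48 CPM (SD, n = 4) in CTRL and 81.5 ± 5.19 CPM (SD, n = 3) in DJL1, a ratio of 0.518. These sums rest on 9624 to 12486 counts a library in CTRL and 2671 to 3209 in DJL1. In the DJL1 libraries the median log2 ratio of a member's level to its CTRL mean was -0.88, -0.99 and -0.77. These ratios were taken with a pseudocount of 0.1 CPM added to the levels, which draws those of members with few counts toward 0. All 3 libraries were low and none carried the decrease alone.

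**Figure D1:**
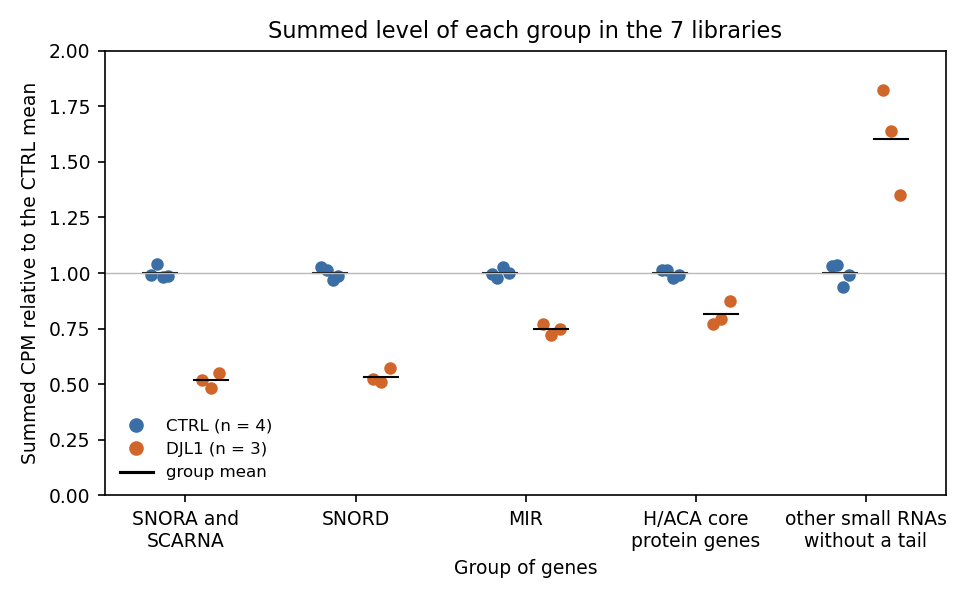
Summed CPM of 5 groups of genes (H/ACA members, SNORD rows, microRNA rows, core protein genes and other RNAs without a tail) in each library, divided by the CTRL mean of the group. Points are libraries, 4 CTRL and 3 DJL1, and bars are group means. The H/ACA members sit near 0.52 of the CTRL mean in DJL1, close to the C/D box RNAs, and the core protein genes near 0.81.

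Of the 92 members that passed the filter on low counts, 49 were lower in DJL1 at an adjusted p under 0.05 and 0 were higher (edgeR quasi-likelihood test, Benjamini-Hochberg adjustment over 26062 genes). Over all tested genes 25.1% were lower and 27% higher, and among tested genes whose raw sums lay in the range of the members 10.6% were lower. With no adjustment at p under 0.05, 0 members were higher too, and DESeq2 and limma-voom also called 0 higher. The median log2 fold change of tested members was -0.96, with a range of -2.74 to 0.68, while the median over all tested genes was 0.01 and that over tested genes in the members' range of sums was 0.19. A decrease of at least 2-fold with an adjusted p under 0.05 was seen in 33 members, against 2.2% of all tested genes.

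In 52 of the 94 members every DJL1 library was below every CTRL library, and in 0 members every DJL1 library was above. Among tested genes 26.2% had all DJL1 libraries below, and 12.4% among rows in the members' range of sums. SCARNA9L and SNORA12 were not tested. In SCARNA6, SNORA15, SNORA15B-1 and SNORA77 no DJL1 library reached the filter's 0.161 CPM, so they passed only through their CTRL level. SNORA22B, SNORA69, SNORA60 and SNORA11F, among the largest called decreases, and some other members did not reach it in every DJL1 library. Their DJL1 levels alone would not have passed the filter either, so large decreases among members with few counts are partly selected by a high CTRL level. With no filter all 94 were tested, and 47 were lower and 0 higher with a median of -0.94, where 16.2% of all genes were lower.
The authors' deposited table lists 47 of the members, of which 38 have a negative log2 fold change at an adjusted p under 0.05 and 0 a positive one, with a median of -0.99. Lower genes make up 30.1% of the whole of the authors' deposited table.

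The 43 tested members that were not called had fewer reads, with a median raw sum of 133 against 622 for the called ones. Of these 43, 35 had a log2 fold change below 0 and 8 above 0. Counts were thin in DJL1, with a median of 18 counts per member and library against 52.5 in CTRL. A library with 0 counts was present for 13 members in DJL1 and for 0 in CTRL. The variance between libraries was 1.51 times the Poisson value at the median member in CTRL and 3.01 times in DJL1, so more of the scatter in DJL1 exceeded counting error.

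**Figure D2:**
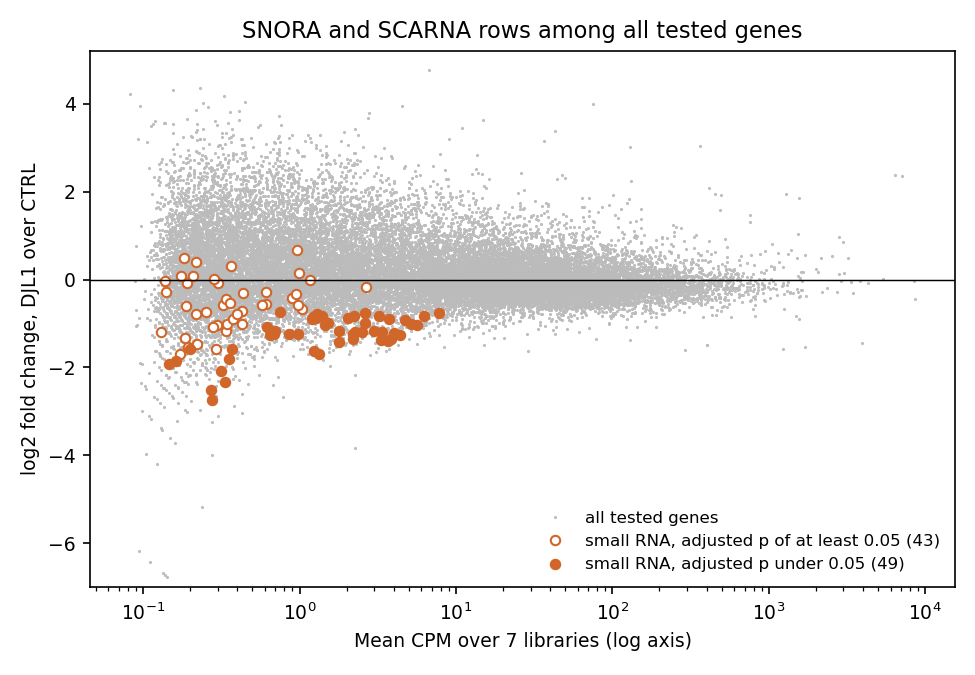
Log2 fold change of DJL1 against CTRL for the 92 tested members, over the mean CPM of the 7 libraries on a log axis. Filled points are the 49 members at an adjusted p under 0.05 and open points the other 43. Small grey dots are all tested genes. The filled points all lie below 0, and the open points are mostly at low CPM.

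The 10 members with the highest mean level, 9 SNORA RNAs and SCARNA12, held 39.6% of all member counts. SNORA64 had the highest level, 9.58, 10.3, 9.02 and 8.98 CPM in CTRL and 5.01, 4.91 and 6.93 CPM in DJL1. The groups did not overlap, and the log2 fold change was -0.75 ± 0.12 (SE) with an edgeR adjusted p of 8.3e-05. Per length, its mean level fell from 70.7 to 41.9 CPM per kilobase. SNORA67 had 7.53, 8.92, 6.76 and 7.63 CPM in CTRL and 3.97, 4.65 and 4.48 CPM in DJL1. Its DJL1 libraries were all lower, by a log2 fold change of -0.82 ± 0.12 (edgeR adjusted p 3.4e-05), or from 56.3 to 31.9 CPM per kilobase. SNORA70 had 7.59, 6.75, 7.16 and 7.42 CPM in CTRL and 3.03, 3.65 and 3.83 CPM in DJL1. Its decrease of -1.05 ± 0.12 on the log2 scale (edgeR adjusted p 2.3e-06) took it from 53.5 to 25.9 CPM per kilobase. Over all 94 members the CTRL level per length had a median of 6.21 CPM per kilobase and a range of 0.469 to 70.7, and the DJL1 median was 3.07 CPM per kilobase.

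The next in level moved the same way. SNORA52 had 5.41, 5.79, 4.70 and 4.97 CPM in CTRL and 2.64, 1.83 and 1.62 CPM in DJL1, a log2 fold change of -1.36 ± 0.17 (edgeR adjusted p 5.5e-06). SNORA33 had 4.88, 4.88, 5.39 and 4.77 CPM in CTRL and 1.85, 1.40 and 2.43 CPM in DJL1, a log2 fold change of -1.39 ± 0.17 (edgeR adjusted p 4.3e-06). In both RNAs the highest DJL1 library was well under the lowest CTRL library. SNORA40 had 5.97, 6.05, 5.61 and 5.75 CPM in CTRL and 3.13, 1.88 and 2.32 CPM in DJL1 (-1.25 ± 0.15 on the log2 scale). SNORA4, SNORA6 and SNORA63 had log2 fold changes of -0.92, -1.22 and -0.89, and in each of them the groups did not overlap either.

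SNORA73A and SNORA73B are known for a part in cleavage of the ribosomal RNA precursor and not for pseudouridylation. SNORA73B had 4.17, 4.66, 4.55 and 4.54 CPM in CTRL and 1.64, 1.26 and 2.27 CPM in DJL1, a log2 fold change of -1.38 ± 0.17 (edgeR adjusted p 8.2e-06). SNORA73A had 2.90, 3.14, 2.94 and 2.60 CPM in CTRL and 1.15, 1.43 and 1.13 CPM in DJL1, a log2 fold change of -1.23 ± 0.17 (edgeR adjusted p 2.3e-05). Both were lower in every DJL1 library, by amounts within the range of the modification guides.

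**Figure D3:**
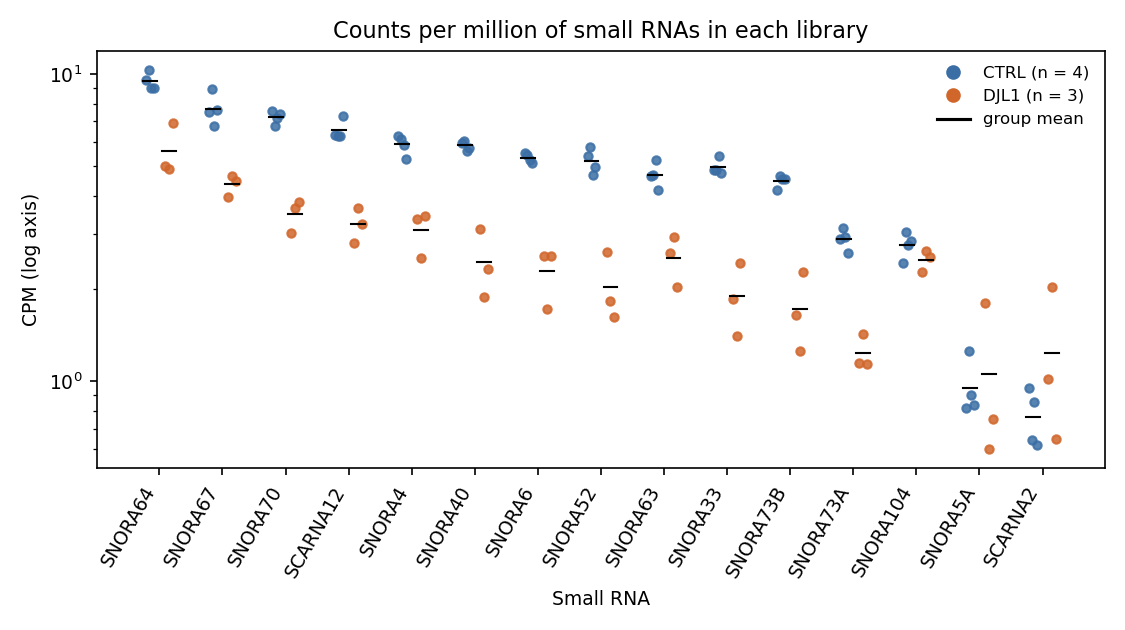
Level of 15 members in each library, in CPM on a log axis. Points are libraries, 4 CTRL and 3 DJL1, and bars are group means. The abundant members show separate groups, and SNORA104, SNORA5A and SCARNA2 show groups that overlap.

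The largest decreases were in members with few counts. SNORA22B had 0.513, 0.579, 0.273 and 0.379 CPM in CTRL and 0, 0 and 0.189 CPM in DJL1. Its log2 fold change of -2.74 ± 0.79 (edgeR adjusted p 0.0085) rests on 2 DJL1 libraries with 0 counts, which allow up to 0.0783 and 0.0856 CPM. It was -2.91 to -2.17 without each other library, and without DJL1 replicate 3 both remaining DJL1 libraries were at 0, so that no fold is given. SNORA15 had 0.385, 0.421, 0.450 and 0.424 CPM in CTRL and 0.130, 0.0571 and 0.0270 CPM in DJL1 (-2.50 ± 0.56, edgeR adjusted p 0.0015). SNORA69 had 0.433, 0.605, 0.434 and 0.575 CPM in CTRL and 0.0522, 0.0571 and 0.189 CPM in DJL1 (-2.34 ± 0.52, edgeR adjusted p 0.0014). Without DJL1 replicate 1 SNORA15 was at -3.28, and without DJL1 replicate 3 SNORA69 was at -3.19. These 3 were apart between the groups in every library, with standard errors several times those of the abundant members. SNORA60 followed at -2.08, and SNORA11F was at -1.80. SNORA15B-1 had -1.86 with an edgeR adjusted p of 0.0413, which ranged from 0.0337 to 0.198 over the alternatives. Its call was lost without DJL1 replicate 1 or 2, with no filter, with limma-voom and with the replicate block. Without any of the 4 CTRL libraries it no longer passed the filter, and without DJL1 replicate 3 it was at -2.47. Members with near copies, such as the SNORA15 and SNORA22 groups, may share reads, so their own levels are uncertain.

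SNORA27 was the most abundant of the 8 largest decreases. It had 1.65, 2.04, 2.04 and 1.89 CPM in CTRL and 0.913, 0.342 and 0.486 CPM in DJL1. Its libraries did not overlap, and the log2 fold change was -1.70 ± 0.28 (edgeR adjusted p 9.6e-05). The smallest decreases that were called lay between -0.74 and -0.84, in SNORA78, SNORA64, SNORA62, SNORA5C, SNORA67, SNORA24, SNORA16A and SNORA71C. The calls of SNORA78 (edgeR adjusted p 0.044) and SNORA5C (0.027) were each lost in 5 of the 7 fits that leave out 1 library. For SNORA78 these left out CTRL replicate 1, 2 or 4 or DJL1 replicate 1 or 2, with adjusted p of 0.0303 to 0.200 over all alternatives. The call of SNORA78 was also lost with DESeq2, with limma-voom with or without group variances and with no filter. Thinning to the smallest library and the replicate block lost it too. For SNORA5C the fits left out CTRL replicate 2, 3 or 4 or DJL1 replicate 1 or 2, with adjusted p of 0.00598 to 0.101 over all alternatives. The call of SNORA5C was also lost with group variances in limma-voom and with thinning to the smallest library.

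Some members with enough reads did not move with the rest. SNORA104 had 2.42, 3.05, 2.77 and 2.86 CPM in CTRL and 2.27, 2.65 and 2.54 CPM in DJL1, a log2 fold change of -0.16 ± 0.15 (edgeR adjusted p 0.402). SNORA5A had 0.818, 1.25, 0.901 and 0.833 CPM in CTRL and 1.80, 0.599 and 0.755 CPM in DJL1, a log2 fold change of 0.15 ± 0.34 (edgeR adjusted p 0.740). In both the groups overlapped. They were singled out after their values were seen, and the standard error of SNORA5A leaves room for a moderate change.

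SNORA11D and SNORA11E hold the same letters over 128 of 128 bases, at chrX:52190621-52190748 on the plus strand and chrX:52063347-52063474 on the minus strand. Their counts were 65, 86, 60 and 61 against 65, 86, 60 and 60 in CTRL, and 48, 18 and 18 for both in DJL1. The counts of both copies thus differ by 1 read in 1 library, and they are 1 measurement listed under a pair of symbols. Neither was called, at log2 fold changes of -0.43 and -0.42.

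Among the SCARNA members 2 of 10 tested were lower, SCARNA12 and SCARNA6, and 0 higher, with a median log2 fold change of -0.65. This share of 20% is near the 25.1% lower over all tested genes, and 10.6% were lower in the members' range of sums. The SNORA members had 47 of 82 lower (57.3%) and a median of -0.96; the difference between the name classes was not tested. SCARNA12, a Cajal body RNA that overlaps an annotated exon of PHB2, had 6.34, 6.26, 6.29 and 7.28 CPM in CTRL and 2.82, 3.65 and 3.24 CPM in DJL1. It stood among the most abundant members and its groups were far apart, with a log2 fold change of -1.02 ± 0.13 (edgeR adjusted p 6.1e-06) and a mean of 24.2 CPM per kilobase in CTRL and 12.0 in DJL1. SCARNA6 had 0.273, 0.237, 0.225 and 0.121 CPM in CTRL and 0.0261, 0.114 and 0.0270 CPM in DJL1, a log2 fold change of -1.92 ± 0.72 (edgeR adjusted p 0.0345). Its call was lost without DJL1 replicate 1 or 3, with no filter (where 1 SCARNA RNA was lower), with group variances in limma-voom and with the replicate block. Without CTRL replicate 1, 2 or 3 it no longer passed the filter, without DJL1 replicate 2 it was at -2.92, and its adjusted p ranged from 0.0151 to 0.146 over the alternatives.

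SCARNA2, a long C/D type RNA known to be transcribed from its own promoter, had the highest log2 fold change of all members. It had 0.947, 0.644, 0.853 and 0.621 CPM in CTRL and 1.02, 2.03 and 0.647 CPM in DJL1. DJL1 replicate 2 stood well above the rest while replicate 3 lay within CTRL, and the log2 fold change of 0.68 ± 0.34 was not called (edgeR adjusted p 0.106). Without DJL1 replicate 3 it was 0.98 with an adjusted p of 0.0169, and over the alternatives the adjusted p ranged from 0.0169 to 0.792. SCARNA17, also known to be transcribed on its own, had 0.30 ± 0.45, SCARNA10 had 0.48 ± 0.58 and SCARNA9 had -0.09 ± 0.55 on the log2 scale, all with overlapping groups. SCARNA5 had 0, 0.228 and 0 CPM in DJL1 and a log2 fold change of -1.20 ± 0.91 (edgeR adjusted p 0.294). It was called by limma-voom and without DJL1 replicate 2, with adjusted p of 0.0413 and 0.0061. Without DJL1 replicate 2 both remaining DJL1 libraries were at 0, so no fold is given and that call rests on libraries with no counts. SCARNA7 had 0 to 0.177 CPM and fell short of 50 counts, and SCARNA13 was listed at 0 in all libraries. TERC, the telomerase RNA, which ends in an H/ACA domain but is no member by name, had 0.128 to 0.177 CPM in CTRL and 0.0270 to 0.143 CPM in DJL1 and was not called (-0.96 ± 0.67, edgeR adjusted p 0.249).

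A host gene was annotated on the same strand for 86 members, and for 85 of these it is a row of the count table. Of the 86, 42 lay in introns only and 44 overlapped an annotated exon of the host. Members under a host exon were lower in 31 of 44 cases with a median log2 fold change of -0.996, and members in introns in 17 of 41 with a median of -0.89. Of 7 tested members with no host given here 1 was lower, SNORA11F. Most of these 7 had no GENCODE small RNA gene over at least 80% of their RefSeq position, so that their hosts were not looked up. Protein-coding hosts held 64 members, of which 37 of 63 tested were lower, and noncoding or pseudogene hosts held 21, of which 11 were lower. Among the 17 members in ribosomal protein genes 16 were lower, with a median of -1.05. These classes differ in read depth as well, and no difference between them was tested.

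For 82 tested members with a tested host the member's log2 fold change was below that of its host in 71. The medians were -0.996 for members and -0.30 for their hosts, and the median difference was -0.69. Of the 46 lower members among them, 37 had a host that was lower, 5 a host that was higher and 4 a host that was not called. The members' and hosts' log2 fold changes were weakly related across the 82 members (Pearson r 0.18, Spearman rho 0.16, given as a description, since members share hosts and libraries). Members thus were lower in hosts of each kind. Of the 59 tested host genes themselves 38 were lower and 7 higher. Over all tested genes, which include many with few reads, 25.1% were lower and 27% higher. A share for genes as well counted as the hosts is not given.

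**Figure D4:**
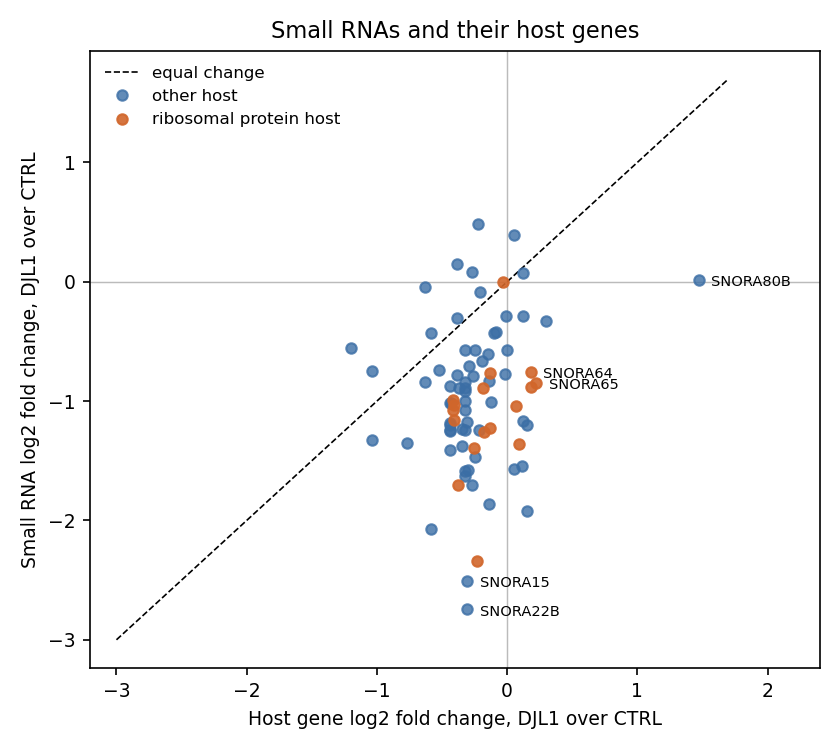
Log2 fold change of each of 82 members against that of its host gene, with a dashed line of equal change and members in ribosomal protein genes in orange. Most points, 71 of 82, lie below the line, including members whose host lies above 0.

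Of the 10 tested members in the 7 hosts that rose, 5 were lower and 0 higher. RPS2, a ribosomal protein gene, had a mean of 1962 CPM in CTRL and 2224 CPM in DJL1, a log2 fold change of 0.18 (edgeR adjusted p 0.0022). Its members SNORA64 and SNORA10 fell, SNORA10 by 0.88 on the log2 scale. RPL12 rose by 0.22 while its member SNORA65 had -0.85 ± 0.24. TCP1, a chaperonin subunit gene, rose by 0.12, and of its members SNORA20 had -1.17 ± 0.28 and SNORA29 had -0.29 ± 0.33, only the former being called. RPL10 and RPLP2 were not called, at 0.07 and 0.09, while SNORA70 and SNORA52 within them fell. SNORA7B in RPL32P3 and SNORA77 in ATP2B4, which both rose, had -0.33 and -1.54 and were not called. In ATG16L1, which rose by 0.15, SCARNA6 was called and SCARNA5 was not. ODC1, the ornithine decarboxylase gene, rose by 1.47, from 428 ± 16.6 CPM (SD, n = 4) to 1188 ± 155 CPM (SD, n = 3). Its member SNORA80B had 0.273, 0.171, 0.290 and 0.409 CPM in CTRL and 0.365, 0.171 and 0.324 CPM in DJL1, a log2 fold change of 0.02 ± 0.49, so the member of the host with the largest rise was not called, with groups that overlapped.

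Of the hosts 17 carried at least 2 members. In 8 of these all members were lower, in 6 some were and in 3 none was. TAF1D, which encodes a subunit of the RNA polymerase I initiation factor, held 6 members and had a log2 fold change of -0.44. SNORA40, SNORA25, SNORA32, SNORA8 and SNORA1 in it fell, by 1.25, 1.24, 1.20, 1.18 and 0.88 on the log2 scale, and SNORA18 had -1.02 with an edgeR adjusted p of 0.0518. The call of SNORA1 (edgeR adjusted p 0.0272) was lost without CTRL replicate 1, 3 or 4 or DJL1 replicate 1 or 2, and without DJL1 replicate 3 its value was -1.47. All 6 thus had larger negative values than their host. EIF4A2, a translation initiation factor gene, had 627 CPM in CTRL and 502 CPM in DJL1 (-0.32), and its 4 members SNORA81, SNORA63B, SNORA4 and SNORA63 had -1.63, -0.999, -0.92 and -0.89 and were all called. The other pattern was seen in TBRG4 (-0.38), where SNORA5C had -0.78, SNORA5B -0.30 and SNORA5A 0.15, and only the first was called. In the noncoding host SNHG17 (-0.33) SNORA71B and SNORA71C fell, by 1.24 and 0.84, and SNORA71A had -0.57 with an edgeR adjusted p of 0.0792. The groups of SNORA71B overlapped, and its call was lost without CTRL replicate 3 or 4 or DJL1 replicate 2 or 3, and was at -2.14 without DJL1 replicate 1. SNHG3, whose known products are SNORA73A and SNORA73B, had -0.35. SNHG4 had -1.04, and its members SNORA74A and SNORA74D, with few counts, had -1.33 and -0.75 and were not called. EIF4A1, which holds SNORA67 and SNORA48, is listed at 0 in all libraries, so it gives no host value.

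**Figure D5:**
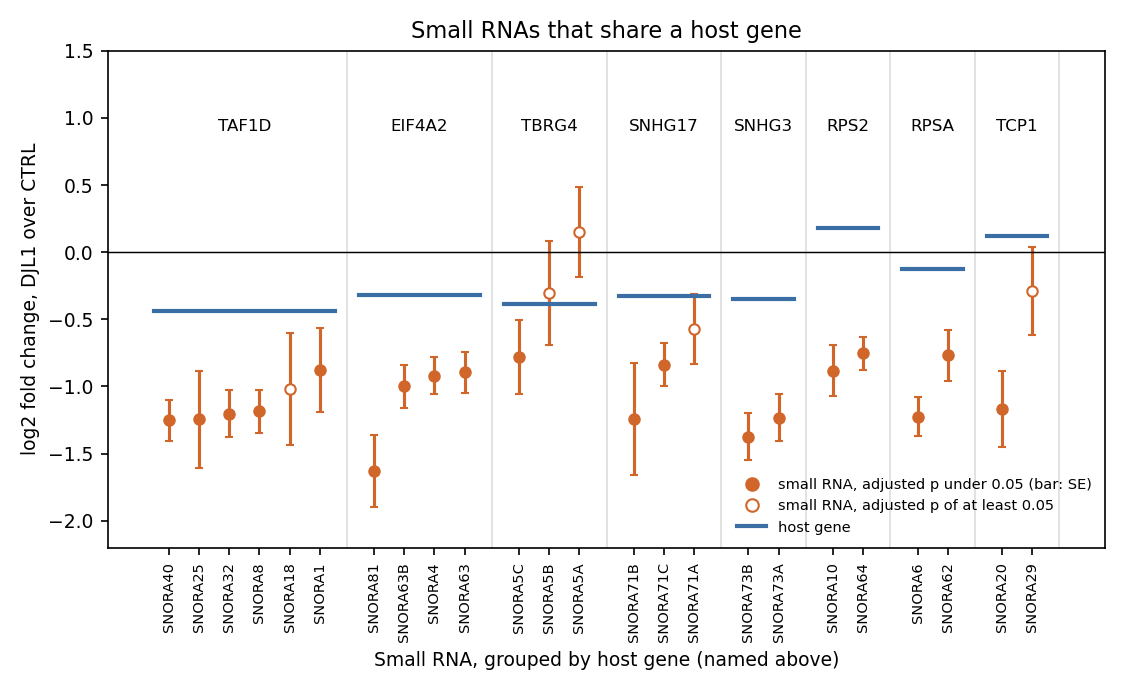
Log2 fold change of members grouped by host for 8 host genes, with bars for the standard error and a line for the host, and open points for members that were not called. In TAF1D and EIF4A2 all members lie below the line of the host, and in TBRG4 the 3 members spread from -0.78 to 0.15.

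The mRNAs of the genes for the particle's proteins moved less than the small RNAs, and protein levels were not measured. Of the 4 core genes 3 were lower. NOP10 had 67.5, 70.1, 65.7 and 66.2 CPM in CTRL and 42.0, 47.0 and 46.0 CPM in DJL1, a log2 fold change of -0.58 ± 0.05. DKC1, the synthase, had 194, 192, 190 and 190 CPM in CTRL and 155, 152 and 171 CPM in DJL1 (-0.26 ± 0.04). NHP2 had -0.35 ± 0.10 (edgeR adjusted p 0.0067), a call lost without DJL1 replicate 2 (adjusted p 0.0573), and GAR1 had -0.01 ± 0.05 (0.891). The core genes had lower summed levels at a ratio of 0.814, against 0.518 for the member RNAs.
Of 18 genes for core, assembly and maturation proteins 12 were lower and 2 higher, with a median of -0.23. Over all tested genes 25.1% were lower and 27% higher, but these include many with few reads. A share for genes as well counted as these is not given, so the count is not read as particular to them. NAF1, an assembly factor, had -0.31, and SHQ1, which binds dyskerin before assembly, had 0.03 and was not called. WRAP53, which brings RNAs to Cajal bodies, had -0.25 and COIL, the coilin gene, -0.23. The 2 that rose were TENT4B, a poly(A) polymerase that tags small RNA precursors, at 0.48 and TGS1, the cap hypermethylase, at 0.26.

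Other small RNA rows are set beside the members for comparison. The C/D box RNAs (137 rows named SNORD with at least 50 counts) had 91 lower (66.4%), 1 higher and a median of -0.97. Their sums were 484 ± 12.6 CPM (SD, n = 4) and 258 ± 15.9 CPM (SD, n = 3), a ratio of 0.534. MicroRNA rows, also often intronic, had 22 of 90 tested lower (24.4%) and 6 higher (6.67%), a median of -0.60 and a ratio of summed levels of 0.747. Among all tested genes 25.1% were lower and 27% higher, so the share of microRNA rows called lower was near that of all genes. The C/D box RNAs thus had a median and a ratio of sums close to those of the H/ACA RNAs, and the microRNA rows smaller decreases. No difference between these classes was tested.
Of 35 other RNAs that lack a poly(A) tail, 11 were tested, 3 were higher (27.3%) and 1 was lower (9.09%). The share higher was near the 27% of all tested genes, of which 25.1% were lower, and 11 RNAs are too few to set these shares apart. The 11 include TERC, which ends in an H/ACA domain. RNU6-1, a row for the spliceosomal RNA U6, had 0.610, 0.316, 0.788 and 0.515 CPM in CTRL and 21.7, 10.0 and 13.0 CPM in DJL1, a log2 fold change of 4.76 ± 0.30. RNU6-8, another row for U6, had -1.07 ± 0.44 with overlapping groups and was not called (edgeR adjusted p 0.0558). RNU6-2, RNU6-7 and RNU6-9 had too few counts to be tested. The rows for U6 thus did not move alike. RPPH1, the RNase P RNA, had 2.04 to 2.67 CPM in CTRL and 1.16 to 1.26 CPM in DJL1 (-0.97 ± 0.18). RNU5A-1 was higher by 1.06 and RN7SL1 by 0.26 (edgeR adjusted p 0.0497), though the groups of RN7SL1 overlapped, and RN7SK had -0.04 ± 0.21. The 11 tested RNAs thus did not all move in 1 direction, and 7 of them had values below 0. Their summed level was 27.5 CPM in CTRL and 44.1 CPM in DJL1 on average, and without RNU6-1 it was 26.9 and 29.2 CPM. Whether carry-over of untailed RNA through the poly(A) selection differed between the groups, and what part it had in the members' levels, was not tested.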

How the data were processed

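RNA from 7 H9 libraries (4 CTRL, 3 DJL1, groups from the sample titles) was sequenced after poly(A) selection with a directional kit, per the labels' protocols. The submitters' processing notes list HISAT2 2.2.1, Subread 1.5.0, featureCounts and Trim Galore 0.4.0, with the builds hg38 and GRCh38. How strand, overlapping features and multiply mapped reads were handled is not given, and this bears on RNAs that overlap host exons or have copies. The authors deposited raw counts per gene symbol, which were used unchanged. The deposited comparison table gives, per the file headers, log2 fold changes with a raw and an adjusted p-value per gene, and t and B scores that were not used. A deposited table of log values was not used.

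Genes were filtered with filterByExpr (minimum count 10, minimum total 15, or 0.161 CPM), which kept 26062 of 59251 rows with 99.9% of the counts. The 2-sided quasi-likelihood test of edgeR was applied to DJL1 against CTRL with TMM factors, with Benjamini-Hochberg adjustment over all tested genes at 0.05. CPM are counts per 1000000 scaled by the same factors, and a floor is 3 counts (0.0395 to 0.0483 CPM in CTRL, 0.0783 to 0.0856 CPM in DJL1) and covers counting error only. The fits used edgeR 4.0.16 under R 4.3.3, and the alternatives DESeq2 1.42.0 and limma 3.58.1, with tables compiled in Python 3.11.15. All 94 members matched RefSeq symbols of GRCh38.p14, the source of their lengths, and 87 matched GENCODE release 29, the source of strands, hosts and sequences.

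A withheld item among the members is not reported here by name. The members and lists were chosen with earlier results of these data known. Named members are the 10 highest in mean CPM, the 8 highest and the 8 lowest log2 fold changes among called ones, those nearest the limit of 50 counts and a fixed list of SCARNA RNAs, with hosts and particle proteins, and other names are said to be chosen after the values were seen or belong to a named host. Replicate numbers did not pair the libraries: deviations of same-numbered libraries correlated at -0.01, -0.04 and -0.02. Alternatives were other scalings, filters, thresholds and tools, a replicate block, and leaving out each library.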

Additional observations from a re-analysis of the deposited data

Results flagged for a closer look

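In the 37 groups of 4 CTRL values examined, 4 had a library set apart from the other 3 by Dixon's criterion, which chance alone meets in about 1 in 20 groups. SCARNA12 had 7.28 CPM in CTRL replicate 4 against 6.26 to 6.34 CPM in the others. SNORA15B-1 had 0.449 CPM in CTRL replicate 1 against 0.158 to 0.177 CPM. SNORA24 had 2.10 CPM in CTRL replicate 2 against 1.53 to 1.61 CPM. The summed level of the members was 164.2 CPM in CTRL replicate 2 against 154.8 to 155.8 CPM. In each case the set-apart library was the highest of CTRL. The 3 DJL1 libraries were too few to be examined in this way.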

How the results depend on the processing

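The count of 49 lower members was 48 with DESeq2, 54 with limma-voom, 40 with group variances in limma-voom, 47 with no filter and 45 with a replicate block (0 higher, median -1.02), although the numbers do not pair the libraries. It was 41 to 49 without each library in turn, and the median was -1.004 to -0.88. The count of higher members was 0 to 1 in the same fits, the 1 being SCARNA2 without DJL1 replicate 3, and 0 under every other alternative run. Of the 49, 32 were lower in all 17 alternatives that refit all genes, and 39 without each library in turn. SCARNA rows alone gave 2 lower and a median of -0.65. Members with no annotated host exon over them, an alternative chosen after seeing the data, gave 18 lower of 48. The cause of these differences was not tested. Of 1854 single-gene values over 106 genes, 1742 stayed on their side of the threshold, 99 were no longer called, 13 became called and 0 reversed. The median count of a member in a DJL1 library was 18, and thinned to the smallest library 43 of 75 tested members were lower.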
